A study of Mus musculus with 27 samples.

Results

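HepOrgs are three-dimensional cultures grown from mouse hepatocytes, and HM-Wnt is the rich expansion medium in which they are propagated. The data compared here are the 3 libraries of HM-Wnt HepOrgs at passage 2, collected after 2 weeks (14 days), with the 3 libraries of freshly isolated hepatocytes. These 6 samples were taken, by their labels alone, from the 27 samples of the series, and all 21848 genes of the count table were considered. Of these, 13396 had enough counts to be tested.

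The hepatocyte is the main metabolic cell of the liver. It secretes most plasma proteins, turns ammonia into urea, releases glucose during fasting, oxidizes fatty acids, makes bile acids from cholesterol and pumps them into the bile canaliculus. These tasks are divided along the axis from the portal vein to the central vein, with urea and glucose production richest near the portal vein and drug metabolism and glutamine synthesis richest near the central vein. Hepatocytes taken out of the liver are known to lose much of this programme in culture, and in the injured liver they can take on genes of bile duct cells (cholangiocytes) and of the fetal liver.

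The medium of the HepOrgs was a serum-free basal medium (AdDMEM/F12 with B27 and N-acetylcysteine) that carried gastrin, EGF, FGF10, FGF7, HGF, nicotinamide, conditioned media with R-spondin 1 and WNT3a, the GSK3 inhibitor CHIR99021, the TGF-beta receptor inhibitor A83-01 and the ROCK inhibitor Y-27632. The organoids grew in Matrigel and were enriched for a bubbly, grape-like shape. Cholangiocyte organoids and mesenchyme, sometimes seen in the cultures until passage 2, were picked out by hand. In a separate sorting experiment the study found cells with EpCAM, its sorting marker for duct cells, in HepOrg cultures. They made up a substantial share of the single cells there and were very rare in the hepatocyte isolation. All cells of the cultures were collected for that sort. The mice were adults of both sexes on a C57BL/6 background. The fresh hepatocytes were isolated cells that had not been cultured. A pair of further groups of 3 libraries each served to place the comparison. They were HM-Wnt HepOrgs after 1 week, and HepOrgs kept for 2 weeks in a minimal medium (MM). MM was the same basal medium with WNT conditioned medium and the ROCK inhibitor, without the other growth factors and inhibitors. In its media tests the study first expanded HepOrgs in HM-Wnt, up to passage 2, and then moved them to MM. Fresh hepatocyte replicate 3 was titled wild type like the other two, but its genotype field read MDR2-het. Each count below that rests on it was therefore also computed without it, and the result is printed for some of them. The labels did not say that replicates came from separate animals or cultures, and the p-values therefore measure only the spread between these samples, which may be technical.

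Depth was similar in both groups. The fresh hepatocyte libraries held 34082074 to 53113534 counts and the HM-Wnt libraries at 2 weeks 31477682 to 41197185. Between 14456 and 15070 genes had at least 1 count in each of the 6 libraries. Spearman correlations of levels across genes were 0.949 to 0.978 between the fresh libraries and 0.970 to 0.986 between the HM-Wnt libraries, against 0.773 to 0.829 for pairs across the groups. Levels are given as CPM, read counts scaled to library size with TMM factors, which serve to compare a gene between libraries but not genes with each other. The table listed 3167 protein-coding genes at 0 in all 27 libraries, among them B2m, Hpd, Oat, Hsd11b1, G6pdx and Igf2, and 995 of these 3167 lay over 90% inside the span of another annotated gene. A listed 0 of such a gene was not read as absence.

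About every second gene tested differed between HM-Wnt HepOrgs and fresh hepatocytes. At an adjusted p under 0.05, 6939 of the 13396 genes tested passed (51.8%), 3497 of them higher in the HepOrgs (26.1%) and 3442 lower (25.7%). The differences were large. The median absolute log2 fold change of the genes past the threshold was 1.60, 895 genes rose by more than 3 on the log2 scale and 862 fell by more than 3. Without fresh hepatocyte replicate 3, 6214 genes passed, 3089 higher and 3125 lower, and 5997 of the 6939 calls remained with the same direction. With all 27 libraries sharing 1 estimate of the spread, 3247 genes passed. Higher and lower genes were evenly split under TMM, where all genes tested had a median of 0.03. Scaling by total counts alone shifted log2 fold changes by a median of 0.56 and gave 5967 higher and 1994 lower genes, and the log2(TPM + 1) scale shifted them by 0.75 and gave 5844 higher and 1074 lower genes. Differences below about the size of these shifts thus depend on the scale.

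**Figure D1:**
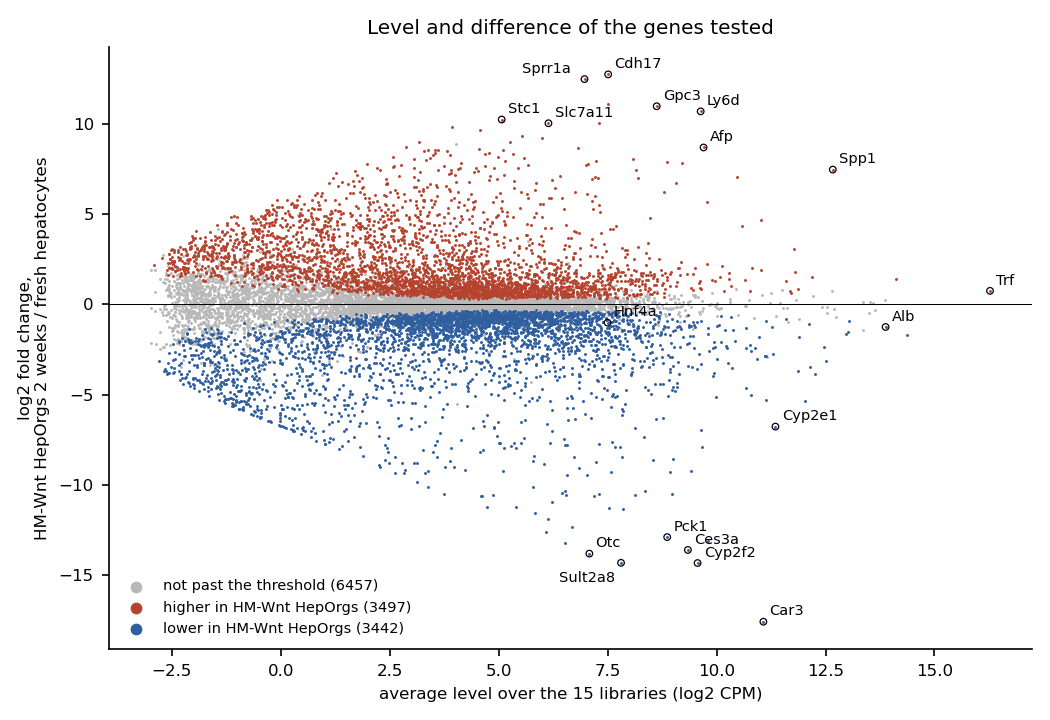
Average level over the 15 libraries of the fit (x axis, log2 CPM) against the log2 fold change of HM-Wnt HepOrgs at 2 weeks over fresh hepatocytes (y axis) for the 13396 genes tested, 1 point a gene. Red points (3497) are higher and blue points (3442) lower past the threshold, grey points (6457) are not past it. Cdh17 and Sprr1a are the highest labelled genes and Car3 the lowest.

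The genes with the largest rises were led by Cdh17, Sprr1a, Cpe and Gpc3. They were picked from the 15 largest rises among abundant genes whose 2 groups did not overlap, so their separation follows from the choice. Of all genes tested, 60.9% had groups that did not overlap and 49.6% also passed the threshold. Cdh17 (GRCm39, chr4:11758147-11817895), an intestinal cadherin, had no count in any fresh library and stood at 291, 259 and 418 CPM in the HM-Wnt libraries, which is at least 3554-fold higher when 3 counts are allowed in each fresh library. Sprr1a, a squamous epithelium and injury-response protein, had 1 count over the 3 fresh libraries and 309, 248 and 412 CPM in the HepOrgs, a ratio of 33395 with a 95% exact Poisson counting interval of 5994 to 1319010. For Stc1, a secreted glycoprotein hormone, the HepOrgs held 66.8, 56.2 and 82.3 CPM against 1 count in the fresh libraries.

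The same ranking held Gpc3 and Afp, known from fetal liver. Gpc3, a cell surface proteoglycan of fetal liver and liver cancer, read 0.0959, 0.941 and 0.304 CPM in the fresh libraries and 1085, 666 and 1049 CPM in the HepOrgs, a log2 fold change of 10.98 ± 0.95 (SE, adjusted p = 1.34e-06). Afp, the fetal counterpart of albumin, read 5.06, 4.08 and 5.47 CPM in the fresh libraries and 1362, 389 and 4366 CPM in the HepOrgs. The HepOrg libraries thus spread widely for Afp, yet the lowest was far above the highest fresh library (log2 fold change 8.69 ± 1.18, adjusted p = 5.08e-05). Ly6d, a small membrane-anchored surface protein, rose from 0.264, 0.902 and 0.359 CPM to 861, 735 and 1058 CPM. Slc7a11, the cystine importer that feeds glutathione synthesis, rose from at most 0.0959 CPM to 79.8, 74.9 and 142 CPM (log2 fold change 10.04 ± 1.07, adjusted p = 7.37e-06). The others of the 15 were Cpe, A2m, Psrc1, Plat (tissue plasminogen activator), Plod2, Phlda3, Akr1c18 and Bmp8b, with log2 fold changes between 8.35 and 11.13.

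The deepest falls were in enzymes of the differentiated hepatocyte, picked in the same way. Car3, a carbonic anhydrase among the most abundant hepatocyte transcripts, read 11583, 7959 and 12777 CPM in the fresh libraries and had 0, 0 and 1 count in the HepOrg libraries, a ratio of 1408670 with a counting interval of 252829 to 55639600. Fitted log2 fold changes of genes with so few counts in a group depend on the prior count of the fit and are no bound. Otc (GRCm39, chrX:10118503-10187265), the urea cycle enzyme ornithine transcarbamylase, stood at 622, 824 and 581 CPM and had no count in any HepOrg library (at least 9789-fold lower, with 3 counts allowed in each). Ces3b, a carboxylesterase, was likewise at 0 in the 3 HepOrg libraries and at 382 to 549 CPM in the fresh ones (at least 6596-fold lower). Cyp2f2, a cytochrome P450 of periportal hepatocytes, fell from 3597, 4315 and 3429 CPM to 0.178, 0.198 and 0.0248 CPM (log2 fold change -14.34 ± 1.11, adjusted p = 5.42e-07). Pck1, which commits to gluconeogenesis, fell from 3217, 2290 and 1479 CPM to 0.244, 0.352 and 0.174 CPM.

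Not every deep fall was even among the fresh libraries. Bhmt, of methionine metabolism, read 875, 7823 and 4450 CPM there, and Cyp26a1, which degrades retinoic acid, 69.9, 894 and 53.6 CPM. Elovl3, a fatty acid elongase of male liver, read 253, 913 and 1598 CPM, and Slco1a1, a bile salt and drug importer, 1448, 426 and 1554 CPM. In all 4 genes the HepOrg libraries were at or below 0.837 CPM.

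**Figure D2:**
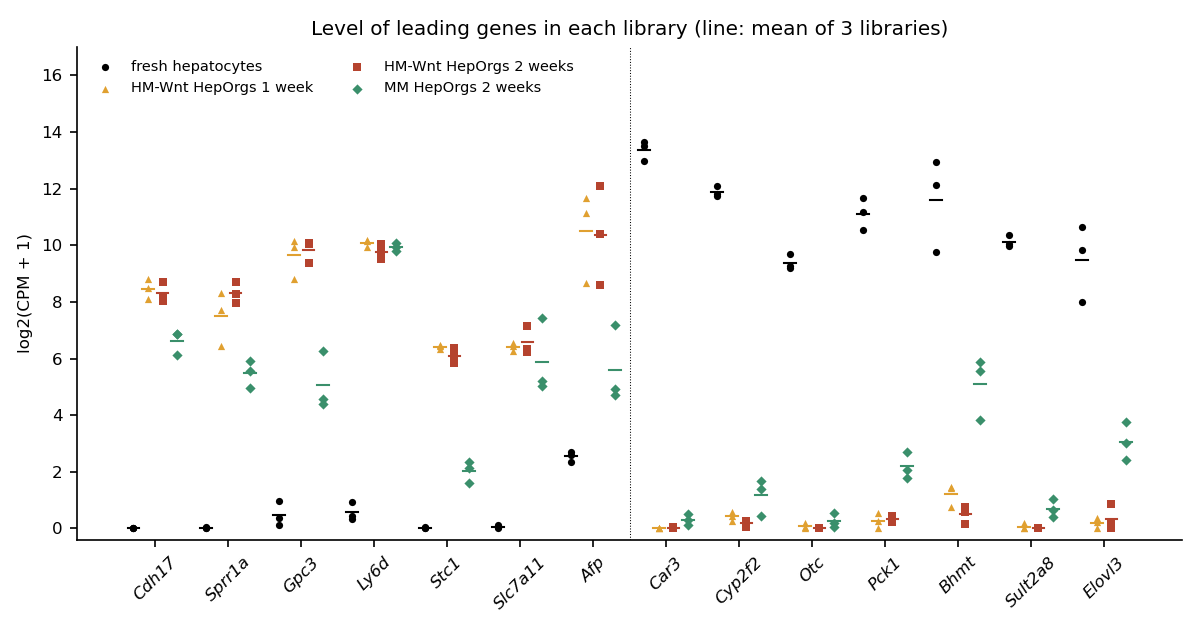
Level of 14 leading genes (y axis, log2(CPM + 1)) in each library of fresh hepatocytes, HM-Wnt HepOrgs at 1 and 2 weeks and MM HepOrgs at 2 weeks, with a line at the mean of 3 libraries. Left of the dotted line are genes that rose and right of it genes that fell against fresh hepatocytes. Past the threshold, Cdh17, Sprr1a, Gpc3, Stc1 and Afp are lower in MM than in HM-Wnt at 2 weeks. Car3, Cyp2f2, Pck1, Bhmt, Sult2a8 and Elovl3 are higher in MM, with Car3 and Sult2a8 near the floor in both media.

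The sequences before the starts of some of these genes are shown to set the letters of the promoters beside the direction of change. They are the 250 bases upstream of the RefSeq start (build GRCm38.p6), 5′ to 3′ on the gene's strand. Capitals mark matches, on either strand, to AP-1 (TGANTCA), TCF/LEF (CTTTGAT), HNF1 (GTTAAT), HNF4 (AAAGTCC) and the TATA box (TATAAA). Sprr1a (chr3:92485882-92486131, minus strand) and Gpc3 (chrX:52613975-52614224, minus strand) rose, and Otc (chrX:10252055-10252304, plus strand) and Ces3b (chr8:105083505-105083754, plus strand) fell.
Sprr1a: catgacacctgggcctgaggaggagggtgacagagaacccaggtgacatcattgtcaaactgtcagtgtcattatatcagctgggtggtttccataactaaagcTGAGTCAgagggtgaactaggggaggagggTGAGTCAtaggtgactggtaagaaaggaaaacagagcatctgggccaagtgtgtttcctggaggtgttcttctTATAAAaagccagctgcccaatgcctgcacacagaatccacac
Gpc3: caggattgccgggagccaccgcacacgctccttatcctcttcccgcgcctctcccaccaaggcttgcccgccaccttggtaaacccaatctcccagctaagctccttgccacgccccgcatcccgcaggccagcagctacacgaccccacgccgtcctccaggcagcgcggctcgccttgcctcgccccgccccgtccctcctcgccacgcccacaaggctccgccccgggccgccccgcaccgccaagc
Otc: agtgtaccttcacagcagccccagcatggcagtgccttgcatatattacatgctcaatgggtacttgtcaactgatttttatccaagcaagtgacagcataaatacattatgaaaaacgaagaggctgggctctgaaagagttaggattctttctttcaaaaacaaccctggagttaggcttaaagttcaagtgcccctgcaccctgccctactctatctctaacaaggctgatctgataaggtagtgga
Ces3b: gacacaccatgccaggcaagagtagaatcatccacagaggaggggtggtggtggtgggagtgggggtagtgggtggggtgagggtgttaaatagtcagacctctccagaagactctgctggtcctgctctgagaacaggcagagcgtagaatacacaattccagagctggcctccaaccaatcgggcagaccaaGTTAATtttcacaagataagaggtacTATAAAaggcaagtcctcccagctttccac

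Sprr1a held AP-1 letters 146 and 116 bases before its start and a TATA box at 43, and Ces3b HNF1 letters at 56 and a TATA box at 30. None of the searched letters lay in the Gpc3 and Otc windows, which differed in base composition, with 25 CG dinucleotides in Gpc3 and 1 in Otc. Over all genes, 8377 of those tested had a single RefSeq start. AP-1 letters were found in 7.88% of the 533 promoters of genes that rose by more than 3 on the log2 scale, in 6.83% of the 483 of genes that fell by more than 3, and in 4.46% of all. HNF4 letters were in 3.56%, 7.66% and 4.02% of the same sets, HNF1 letters in 3.94%, 7.25% and 4.25%, and TATA boxes in 10.7%, 15.3% and 7.01%. The deeply falling genes were also poorer in CG dinucleotides, with a median of 4 in the window against 11 in the strongly rising genes and 15 in all. TCF/LEF letters stood at 2.44%, 2.90% and 2.30%. These shares are descriptions and were not tested, and a match is not a bound site.

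Of 24 listed secreted plasma proteins, all tested, 10 fell, 1 rose and 13 did not pass the threshold, where 25.7% of all genes were lower, with a median log2 fold change of -0.89 against 0.03 for all genes. Alb read 30659, 37837 and 15388 CPM in the fresh libraries and 13196, 8206 and 13793 CPM in the HepOrgs, so that the groups did not overlap (log2 fold change -1.25 ± 0.39, adjusted p = 0.0165). That call was lost without fresh replicate 2, without HM-Wnt replicate 2 and on the total-count and TPM scales. Trf, the iron carrier transferrin, rose from 54395, 49107 and 53698 CPM to 92415, 101070 and 70888 CPM (log2 fold change 0.75 ± 0.27, adjusted p = 0.0337), a call that was lost without any 1 of the fresh replicates and without HM-Wnt replicate 1 or 2.

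Several proteins of the same list overlapped between the groups. Hpx, the heme scavenger hemopexin, read 5114, 8511 and 4748 CPM in the fresh libraries and 5927, 5017 and 2120 CPM in the HepOrgs, and Fgb, a fibrinogen chain, 9800, 8797 and 10904 CPM against 11656, 15748 and 8003 CPM. The libraries of both groups intermingled, and neither gene passed the threshold (log2 fold changes -0.49 ± 0.54 and 0.26 ± 0.43), though Fgb was called higher on the TPM scale (1.04). Others fell steeply. Apoa2, an apolipoprotein of high-density lipoprotein, went from 16888, 10951 and 16555 CPM to 435, 499 and 165 CPM (log2 fold change -5.34 ± 0.75, adjusted p = 6.77e-05), and Serpinc1, antithrombin, from 4756, 4700 and 4568 CPM to 176, 334 and 60.2 CPM. The list's summed level was 207539 to 228941 CPM in the fresh libraries and 144064 to 212128 CPM in the HepOrgs, ranges that overlapped.

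Among 20 hepatocyte transcription factors and nuclear receptors, 14 fell, 1 rose and 5 did not pass, with a median of -1.71. The share of all genes that fell was 25.7%. Hnf4a, the central factor of hepatocyte identity, read 347, 307 and 235 CPM in the fresh libraries and 137, 173 and 130 CPM in the HepOrgs. The groups did not overlap and the fall was moderate (log2 fold change -1.01 ± 0.22, adjusted p = 0.00172), and it was not called when total counts or TPM set the scale. Nr0b2, the bile acid-induced repressor SHP, fell further, from 84.8, 146 and 83.3 CPM to 0.644, 1.01 and 1.17 CPM (-6.73 ± 0.52, adjusted p = 5.42e-07). Nr1i3, the drug sensor CAR, fell from 69.6, 20.4 and 39.2 CPM to 2.69, 2.84 and 1.56 CPM. The factor that rose was Cebpb, a driver of acute phase and regenerative responses, from 9.01, 9.10 and 7.26 CPM to 58.7, 10.3 and 77.2 CPM, with HM-Wnt replicate 2 close to the fresh level.

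Transcripts of drug metabolism were mostly lower in the HepOrgs. Of 23 cytochrome P450 genes, 17 fell and 3 rose, with a median of -4.25, where 25.7% of all genes were lower. Of 19 phase II enzymes tested 16 fell and none rose, with a median of -2.07. Cyp2e1, the ethanol-inducible enzyme of central hepatocytes, read 13933, 8119 and 13215 CPM in the fresh libraries and 167, 104 and 52.1 CPM in the HepOrgs (-6.77 ± 0.99, adjusted p = 9.75e-05). Cyp3a11, the main drug-oxidizing enzyme, fell less, from 2051, 5246 and 1752 CPM to 695, 1146 and 334 CPM (-2.06 ± 0.65, adjusted p = 0.0174), and was not called without fresh replicate 2 or HM-Wnt replicate 1 or 3, nor on the TPM scale. The enzymes that rose were Cyp1a1, Cyp1b1 and Cyp39a1. Cyp1a1, a classical target of the aryl hydrocarbon receptor, went from 2.18, 1.37 and 1.93 CPM to 235, 152 and 46.0 CPM (6.25 ± 0.83, adjusted p = 4.41e-05), while its neighbour Cyp1a2 fell from 1651, 1893 and 2518 CPM to 80.3, 85.7 and 10.4 CPM.

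Every tested gene of the bile acid synthesis list was lower, while transporters were divided. All 11 listed synthesis genes tested fell, with a median of -4.05, against a background of 25.7% of genes lower. Cyp39a1, a cytochrome P450 that also acts in bile acid synthesis, was not on that list and rose (2.50 ± 0.52, adjusted p = 0.00139). Cyp7a1, the rate-limiting enzyme, read 113, 25.7 and 269 CPM in the fresh libraries and 0.866, 0.749 and 0.248 CPM in the HepOrgs, and Cyp8b1, which makes cholic acid, fell from 120, 616 and 537 CPM to 0.488, 0.0881 and 0.174 CPM. Of 15 transporters tested, 8 fell, 1 rose and 6 did not pass, with a median of -0.91. Transporters of the canalicular membrane split. Abcb11, the bile salt export pump, fell from 296, 696 and 327 CPM to 12.2, 17.3 and 2.36 CPM (-5.37 ± 0.80, adjusted p = 0.000114). Abcc2 (MRP2), the exporter of conjugated bilirubin, fell from 365, 353 and 297 CPM to 171, 195 and 175 CPM (-0.91 ± 0.18, adjusted p = 0.000943), but not on the other scales. Abcb4 (MDR2), the phospholipid floppase, read 264, 215 and 115 CPM against 198, 180 and 165 CPM, and the groups overlapped (-0.13 ± 0.27, adjusted p = 0.710). The lowest of its fresh values was in replicate 3, the library with the MDR2-het genotype field. The part of that label in the value was not tested. At the blood side, Slc10a1 (NTCP), the bile salt importer, fell from 792, 933 and 857 CPM to 10.9, 30.6 and 4.99 CPM, and Abcc4 (MRP4), a basolateral exporter, rose from 0.407, 3.69 and 0.801 CPM to 47.8, 36.2 and 110 CPM (5.33 ± 0.93, adjusted p = 0.00039).

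**Figure D3:**
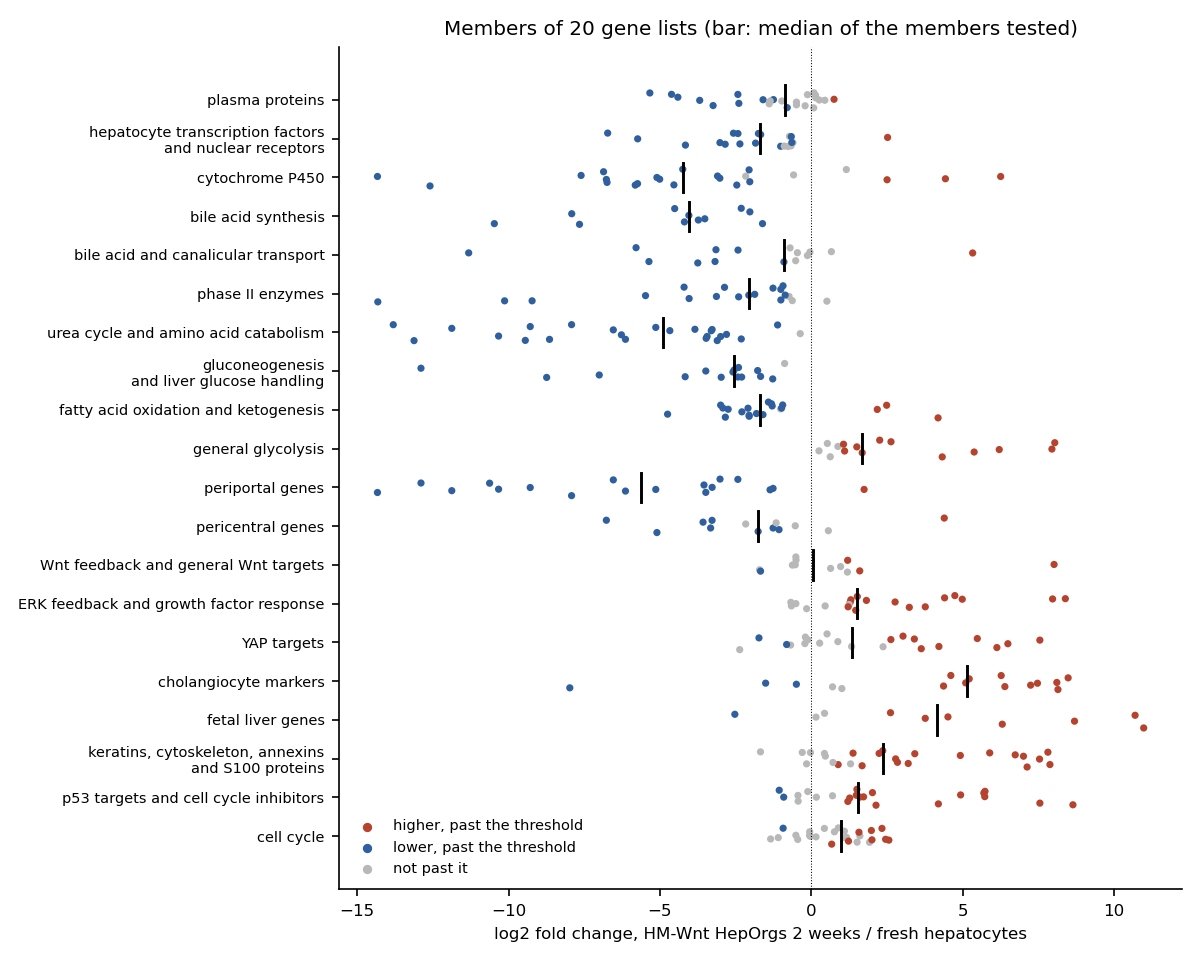
Log2 fold change of HM-Wnt HepOrgs at 2 weeks over fresh hepatocytes (x axis) for the tested members of 20 gene lists (y axis), 1 point a gene, with a black bar at the median. Red and blue points are higher and lower past the threshold and grey points are not past it; the medians run from -5.64 in periportal genes to 5.16 in cholangiocyte markers.

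Transcripts of nitrogen metabolism fell in almost every listed gene. Of 24 tested genes of the urea cycle and amino acid catabolism, 23 fell and none rose, with a median of -4.91. The share of lower genes over all genes was 25.7%. Cps1, the entry enzyme of the urea cycle, went from 3792, 4806 and 3448 CPM to 25.0, 17.9 and 6.58 CPM (-7.92 ± 0.90, adjusted p = 1.2e-05). Arg1, liver arginase, went from 2547, 2340 and 1876 CPM to 5.08, 5.35 and 0.223 CPM (-9.29 ± 1.68, adjusted p = 0.000486). Sds, serine dehydratase, went from 423, 324 and 307 CPM to 0, 0.0440 and 0.0993 CPM. In each of these the lowest fresh library lay far above the highest HepOrg library. The 1 tested member that did not pass was Got1, an aspartate aminotransferase of general use.

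Gluconeogenesis and liver glucose handling fell in 14 of 15 genes, with a median of -2.55. Fatty acid oxidation and ketogenesis fell in 16 of 20 and rose in 3, with a median of -1.71. Over all genes, 25.7% fell and 26.1% rose. Besides Pck1, the liver glucose transporter Slc2a2 (GLUT2) fell from 685, 459 and 522 CPM to 0.866, 1.32 and 1.56 CPM (-8.74 ± 0.81, adjusted p = 2.23e-06). Its span overlaps another annotated gene, which can lower its counts in every library. The fall was shallower in Fbp1, from 1940, 1835 and 1538 CPM to 377, 409 and 201 CPM (-2.43 ± 0.28, adjusted p = 1.29e-05). The members of the fatty acid list that rose were Vnn1, Fgf21 and Pdk4, known as targets of PPAR alpha. Vnn1 rose from 2.59, 10.7 and 0.663 CPM to 83.8, 97.5 and 72.4 CPM, and Fgf21 from 22.5, 0.941 and 8.67 CPM to 53.6, 82.5 and 45.8 CPM. Cholesterol and fatty acid synthesis moved little as a list, with 3 of 26 higher, 6 lower and 17 not past the threshold, though Sqle, of the cholesterol pathway, rose from 74.8, 238 and 179 CPM to 973, 1014 and 547 CPM (2.37 ± 0.37, adjusted p = 0.00015).

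General glycolysis went the other way. Of 15 tested genes, 11 rose and none fell, with a median of 1.68 against a background of 26.1% of genes higher. Pkm, the pyruvate kinase of non-liver tissues, rose from 2.78, 12.6 and 8.56 CPM to 701, 534 and 540 CPM (6.21 ± 0.52, adjusted p = 1.08e-06). Pfkp, the platelet form of phosphofructokinase, rose from 0.503, 3.14 and 1.44 CPM to 576, 405 and 362 CPM, and Hk2 from 0.120, 0.706 and 0.304 CPM to 21.6, 13.8 and 14.5 CPM. Among the 4 members not past the threshold was Ldha, lactate dehydrogenase A, at 1569, 1222 and 1718 CPM against 1984, 1821 and 1566 CPM, with overlapping groups. On the total-count and TPM scales Ldha was called higher.

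The same contrast appeared within pairs of related genes, set against each other as a liver form and a more general form. The genes of a pair do not always share a substrate. Khk with Hk1 and Slc10a1 with Slc10a6, both counted in the 13 below, do not. Of 16 pairs described, all with both genes tested, the liver form fell and the general form rose, both past the threshold, in 13. Among all single genes tested, 25.7% were lower, 26.1% were higher and 60.9% had groups that did not overlap. The exceptions were Pfkl and Pfkp, of which both rose, and Acacb with Acaca and Cps1 with Cad, of which the liver form fell and the general form did not pass, although Acaca was called higher on the total-count and TPM scales. In arginine breakdown, Arg2 rose from 0.144, 0.628 and 0.304 CPM to 15.4, 19.9 and 25.2 CPM while Arg1 fell. In glucose uptake, Slc2a1 (GLUT1) rose from 21.9, 28.5 and 21.6 CPM to 199, 129 and 118 CPM while Slc2a2 fell. The log2 ratio of liver to general form, with 1 CPM added to each, went from 4.47 to -6.03 for glucose uptake and from 10.7 to -2.52 for arginase, as means over 3 libraries.

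**Figure D4:**
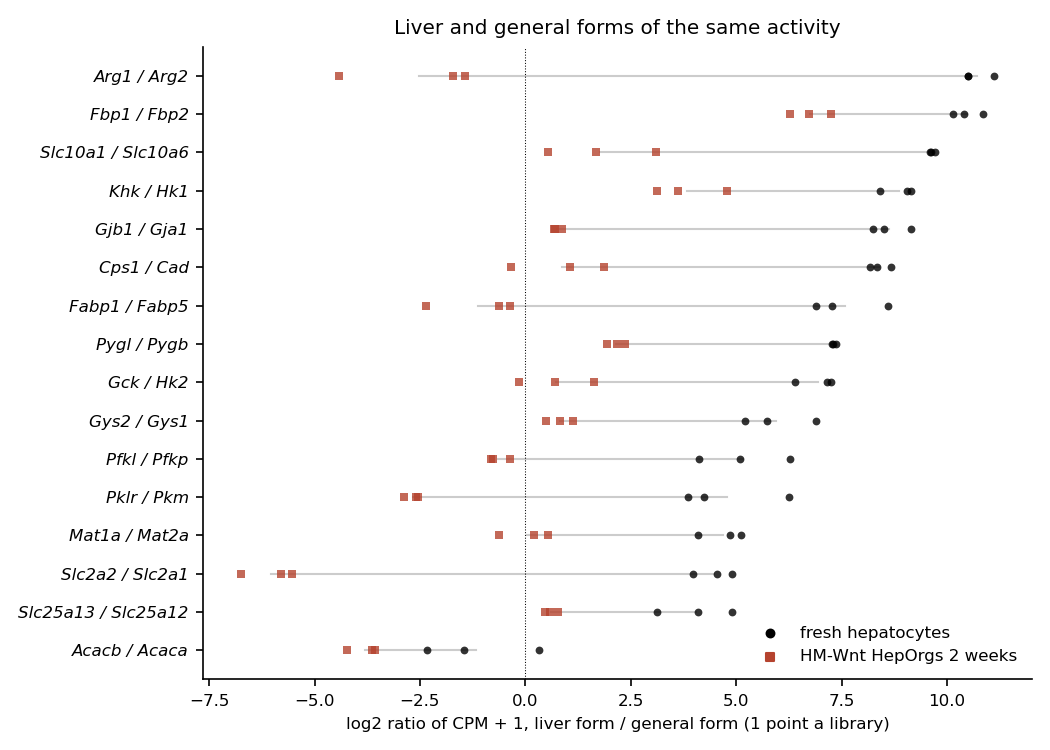
Log2 ratio of CPM + 1 of the liver form over the general form (x axis) for 16 gene pairs (y axis), 1 point a library, black for fresh hepatocytes and red for HM-Wnt HepOrgs at 2 weeks, with a grey line between the group means. In all 16 pairs the 3 HepOrg libraries lie to the left of the 3 fresh libraries. Of all single genes tested, 60.9% had groups that did not overlap. The ratio compares libraries within a pair and not the 2 genes' absolute levels.

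Zonated genes fell on both sides of the lobule, against a share of 25.7% lower over all genes. Of 18 periportal genes 17 fell, with a median of -5.64, the exception being Cdh1 (E-cadherin), which rose from 28.0, 118 and 50.6 CPM to 209, 189 and 261 CPM. Of 13 pericentral genes tested, 8 fell, 1 rose and 4 did not pass, with a median of -1.76. Glul, glutamine synthetase of the cells around the central vein, read 83.2, 206 and 129 CPM in the fresh libraries and 102, 48.4 and 49.2 CPM in the HepOrgs. The groups overlapped and the call was fragile (-1.07 ± 0.38, adjusted p = 0.0301), being lost without fresh replicate 2 or 3, without HM-Wnt replicate 2 or 3 and on the other scales.

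The medium held WNT3a, R-spondin 1 and CHIR99021, whose effect was not tested by the comparison with fresh hepatocytes. Of 12 feedback and general targets of the Wnt pathway tested 3 rose, 1 fell and 8 did not pass, with a median of 0.06. The share of higher genes was near the 26.1% of all genes. Axin2, the most general of them, was low in all 6 libraries, at 0.336, 0.471 and 0.801 CPM in fresh hepatocytes and 1.49, 0.903 and 1.46 CPM in HepOrgs. The groups did not overlap but the difference did not pass (1.19 ± 0.53, adjusted p = 0.0726), and it passed without fresh replicate 3 and under total-count scaling. Lef1, a nuclear effector of the pathway, rose from at most 0.0719 CPM to 29.9, 15.6 and 20.3 CPM (8.02 ± 1.15, adjusted p = 7.99e-05). Notum, a secreted Wnt inhibitor made around the central vein, fell from at least 38.7 CPM in the fresh libraries to 17.2, 8.79 and 18.0 CPM.

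Of 24 tested growth factor and Wnt receptors, a list that also holds receptors of ligands the medium lacked, 13 fell, 3 rose and 8 did not pass. Lower genes made up 25.7% of all genes and higher genes 26.1%. Fgfr4, the hepatocyte receptor for FGF15 and FGF19, fell from 57.3, 27.8 and 41.8 CPM to 1.11, 0.991 and 1.34 CPM (-5.15 ± 0.49, adjusted p = 2.74e-06). Fgfr2, of which a splice form binds FGF7 and FGF10, read 577, 541 and 280 CPM against 644, 147 and 493 CPM, and Met, the HGF receptor, 28.9, 78.7 and 16.1 CPM against 58.6, 35.9 and 43.6 CPM. Both overlapped between the groups and neither passed, but without fresh replicate 2 Met was called higher (1.03). Egfr, named after its values were seen, fell from 935, 428 and 999 CPM to 316, 425 and 269 CPM (-1.22 ± 0.33, adjusted p = 0.00723), not so on the other scales. Erbb2, its co-receptor, rose from 0.216, 0.863 and 0.276 CPM to 9.46, 5.97 and 13.1 CPM.

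Genes that answer growth factor signalling through ERK rose. Of 20 tested 14 rose and none fell, with a median of 1.49, where 26.1% of all genes were higher and 25.7% lower. Ier3, an early response gene, rose from 0.743, 1.49 and 1.44 CPM to 302, 279 and 365 CPM (7.97 ± 0.42, adjusted p = 4.85e-08), and Areg, an EGFR ligand, from 0.240, 0.157 and 0.0276 CPM to 62.9, 82.5 and 46.5 CPM (8.39 ± 1.17, adjusted p = 6.61e-05). Targets of YAP, the mechanosensitive co-activator, rose in 9 of 21 and fell in 2, with a median of 1.33 that became 1.13 with a gene at 0 in fresh hepatocytes set to its bound. Ankrd1 rose from 0, 0.157 and 0 CPM to 10.2, 8.46 and 30.9 CPM and Igfbp3 from 2.85, 7.61 and 5.85 CPM to 292, 207 and 648 CPM. The TGF-beta and BMP list had 7 genes higher, 9 lower and 9 not past the threshold, with a median of 0.00. Its share of higher genes was near the 26.1% of all genes. The inhibitor A83-01 of the medium acts on the TGF-beta receptor, so it bears on only part of this list. Tgfb2, a ligand of the pathway, rose from at most 0.118 CPM to 6.01, 5.44 and 14.7 CPM. Hamp, the BMP-driven iron hormone hepcidin, fell from 1362, 172 and 974 CPM to 19.2, 21.0 and 89.3 CPM (-4.27 ± 1.38, adjusted p = 0.019), a call lost without HM-Wnt replicate 1 or 2. Its span also overlaps another gene.

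Markers of cholangiocytes rose in 11 of 16 tested and fell in 3, with a median of 5.16, where 26.1% of all genes were higher. Their summed level was 51.4 to 210 CPM in the fresh libraries and 4609 to 12391 CPM in the HepOrgs, but 1 gene made up nearly all of it. Spp1 (osteopontin), named after its values were seen, stood at 6048, 4434 and 11946 CPM in the HepOrgs and at 1.56, 105 and 19.7 CPM in the fresh libraries. Without Spp1 the sums were 49.8 to 104 CPM and 175 to 445 CPM. The keratin Krt19 was low throughout, at 0, 0.745 and 0.387 CPM in the fresh libraries and 1.82, 7.82 and 19.6 CPM in the HepOrgs, where it differed several-fold between replicates (4.61 ± 1.28, adjusted p = 0.00868). Sox9, a factor of duct cells, read 8.84, 20.6 and 6.79 CPM against 19.0, 17.9 and 21.8 CPM, overlapped between the groups and did not pass (0.70 ± 0.34, adjusted p = 0.0997), though it passed as higher without fresh replicate 2 (1.32) and on the total-count (1.30) and TPM scales, with a span that overlaps another gene. Cldn4, a tight junction protein, rose from 3 counts in all to 28.1, 15.3 and 39.7 CPM. The 2 markers Cftr and Sctr had too few counts to be tested. In bulk RNA a few cells with much of a transcript cannot be told apart from many cells with little of it, which holds for every list here.

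Fetal liver genes rose in 7 of the 10 tested of 14 listed and fell in 1, with a median of 4.14. Over all genes, 26.1% were higher and 25.7% lower. The rises were led by Gpc3, Afp and Ly6d, described above, the last a surface protein placed in this list. H19 was missing from the count table, and Igf2, Igf2bp1 and Lin28b were not tested. Genes of the cytoskeleton, keratins, annexins and S100 proteins rose in 17 of 25 and fell in none, with a median of 2.36. Tmsb10, an actin-binding peptide, rose from 0.887, 5.37 and 4.06 CPM to 843, 668 and 825 CPM (7.82 ± 0.63, adjusted p = 7.54e-07), and Cd63, a tetraspanin placed in this list, from 0.935, 3.37 and 3.04 CPM to 561, 570 and 620 CPM (7.88 ± 0.46, adjusted p = 7.28e-08). S100a6 rose from 0, 0.471 and 0.0276 CPM to 28.0, 21.8 and 52.3 CPM. Junctions, integrins and laminins rose in 16 of 30 and fell in 8. Itga6, an integrin chain that binds laminins, rose from 0.647, 0.706 and 0.635 CPM to 16.8, 16.6 and 29.7 CPM (4.90 ± 0.28, adjusted p = 6.65e-08).

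Of 26 cell cycle genes tested 8 rose, 1 fell and 17 did not pass, with a median of 0.99 and a share of higher genes near the 26.1% of all genes, and without fresh replicate 2 the number past the threshold went from 9 to 14. Cdk1, the mitotic kinase, rose from 2.30, 2.35 and 1.19 CPM to 11.6, 10.7 and 10.2 CPM (2.45 ± 0.34, adjusted p = 6.06e-05), and Top2a from 0.911, 1.49 and 0.221 CPM to 4.06, 4.34 and 5.19 CPM, while Tyms, of thymidine synthesis, fell from 9.71, 10.5 and 11.2 CPM to 4.73, 5.64 and 6.06 CPM, a fall not called on the total-count and TPM scales or with all 27 libraries. Both Cdk1 and Top2a rose, and they stood at or below 11.6 CPM in every library of both groups. Targets of p53 and cell cycle inhibitors rose in 15 of 22 and fell in 2, with a median of 1.56. Phlda3, a p53-induced repressor of AKT, rose from 0.0719, 0.941 and 0.414 CPM to 215, 139 and 232 CPM (8.64 ± 0.88, adjusted p = 5.27e-06). Cdkn1a (p21), named after its values were seen, rose from 0.983, 4.59 and 4.56 CPM to 187, 171 and 183 CPM (5.73 ± 0.49, adjusted p = 1.15e-06).

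Stress pathways were mixed. Targets of ATF4 and of the unfolded protein response rose in 8 of 20 and fell in 6. Phgdh and Psat1, the first enzymes of serine synthesis, rose from 2.30, 0.275 and 0.525 CPM to 219, 224 and 279 CPM and from 1.61, 0.902 and 0.193 CPM to 220, 204 and 203 CPM (7.77 ± 0.58, adjusted p = 4.1e-07, for Psat1). Herpud1, of protein quality control in the endoplasmic reticulum, fell from 952, 579 and 490 CPM to 161, 188 and 126 CPM. Targets of NRF2, the oxidative stress factor, rose in 7 of 18 and fell in 2. Acute phase genes rose in 8 of 19 and fell in 4. Lcn2 (lipocalin 2) rose from 4.39, 21.1 and 3.45 CPM to 1549, 1134 and 1137 CPM (7.05 ± 0.74, adjusted p = 6.42e-06), and Orm2 from 8.65, 116 and 4.83 CPM to 1243, 973 and 406 CPM, while Saa2, whose span overlaps another gene, read 25.1, 472 and 34.2 CPM in fresh hepatocytes and 10.3, 8.81 and 3.08 CPM in HepOrgs. Both Saa2 and Orm2 were highest among the fresh libraries in replicate 2, and without it the fall of Saa2 was not called (-1.98). Immediate early and isolation stress genes rose in 4 of 21 and fell in 5, shares below the 26.1% and 25.7% of all genes. Their sum was 7124 CPM in fresh replicate 1 against 1426 and 1755 CPM in the other fresh libraries, and the sign of their median changed without replicate 1. Interferon and antigen presentation genes rose in 3 of 19, a share below the 26.1% of all genes. Without fresh replicate 3, 2 genes of that list were called, of which 1 was among these 3, and 5 were called without replicate 2. Chemokines and cytokines rose in 4 of 15 and fell in 2, with Cxcl12 falling from 527, 266 and 362 CPM to 7.46, 10.0 and 3.77 CPM.

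The following lists concern hormones and nutrients, and 25.7% of all genes were lower. The growth hormone axis fell in 9 of 14 and rose in 2, with a median of -2.73. Igf1, the growth hormone-driven growth factor, was named after its values were seen and fell from 1393, 629 and 1270 CPM to 12.1, 29.0 and 12.6 CPM (-5.93 ± 0.72, adjusted p = 2.23e-05). The pair that rose were Igfbp1 and Igfbp3, which bind IGF1, Igfbp1 going from 61.4, 45.7 and 9.97 CPM to 1637, 1941 and 2482 CPM. Glucocorticoid targets fell in 6 of 13 and rose in 1, and clock genes fell in 6 of 16 and rose in 2. Nicotinamide and NAD metabolism fell in 11 of 17 and rose in none, led by Kynu and Kmo, of NAD synthesis from tryptophan, from 104, 121 and 150 CPM to 0.799, 1.32 and 1.09 CPM and from 359, 521 and 492 CPM to 7.90, 7.75 and 4.81 CPM. Kynu and Kmo were also lower in HM-Wnt than in MM (log2 fold changes -3.49 and -3.73, adjusted p = 0.00443 and 0.00156). HM-Wnt held nicotinamide and MM did not, but the media differed in other factors too, and these cannot be told apart. Retinoid and iron genes fell in 10 of 18 and rose in 2. Of 13 protein genes of the mitochondrial genome 12 fell and none rose, with a median of -2.07, and mitochondrial transcripts took 4.11% to 5.03% of counts in the fresh libraries and 1.80% to 1.83% in the HepOrgs. The respiratory chain gene mt-Nd5 fell from 4946, 8710 and 5367 CPM to 944, 977 and 881 CPM.

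Transcripts of other liver cells were present in the fresh preparations. As a background for the counts of markers that fell, 25.7% of all genes were lower. All 10 endothelial markers fell, and their sum was 56.4, 280 and 228 CPM in the fresh libraries and 2.11, 1.74 and 2.85 CPM in the HepOrgs. Of 11 Kupffer and immune markers tested 9 fell and 1 rose, with sums of 57.3, 613 and 228 CPM against 34.1, 17.6 and 46.6 CPM, and Clec4f and Cd5l, which define Kupffer cells, had no count in the HepOrgs. The marker that rose, Cd68, is a lysosomal protein that is not particular to macrophages. Mesenchyme markers fell in 5 of 13 and rose in none, with overlapping sums of 33.3 to 174 CPM and 17.7 to 84.1 CPM. Blood cell markers summed to 2.54, 63.9 and 4.42 CPM against 2.02, 3.06 and 2.58 CPM, and 1 of 3 tested fell. Of 2 mesothelial markers tested 1 fell. Fresh replicate 2 was the highest in the endothelial, Kupffer, mesenchyme, cholangiocyte and blood sums. Without it 6813 genes passed the threshold in all. The part of these cells in the falls of other genes was not tested.

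**Figure D5:**
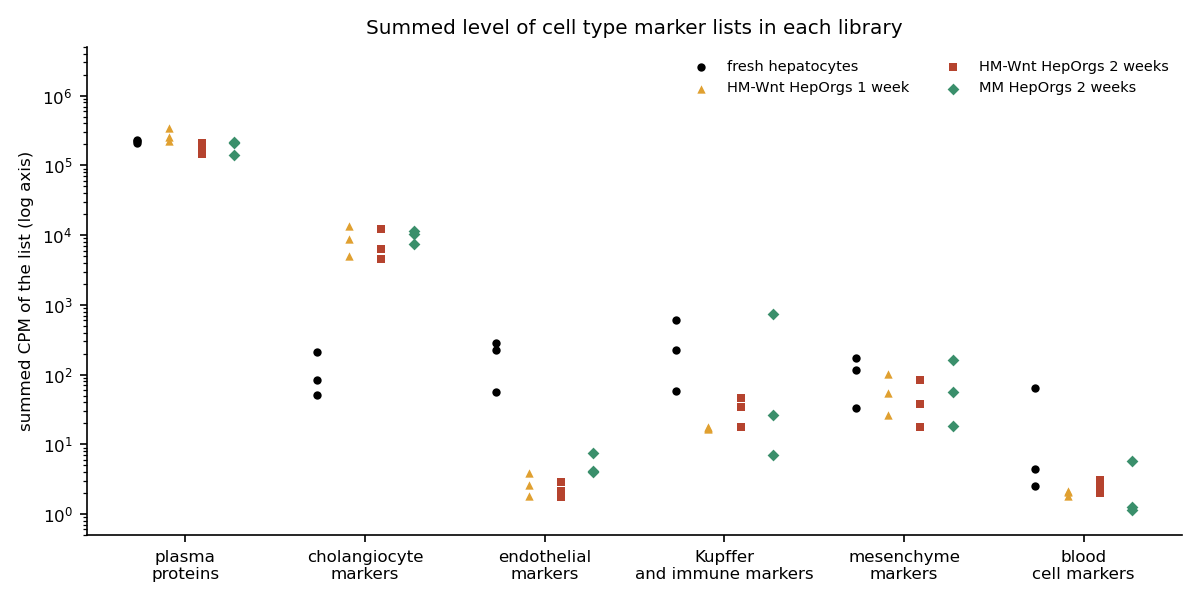
Summed CPM of 6 marker lists (y axis, log axis) in each library of fresh hepatocytes, HM-Wnt HepOrgs at 1 and 2 weeks and MM HepOrgs at 2 weeks. Plasma proteins overlap between the groups, cholangiocyte markers (mostly Spp1) are higher in every HepOrg library than in every fresh library, and endothelial markers are lower in every HepOrg library.

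Few differences were detected between 1 and 2 weeks in HM-Wnt. Between 2 weeks and 1 week, 0 of 13396 genes passed in edgeR (0.0%), with 1067 at an unadjusted p under 0.05 (7.97%), and DESeq2 called 12, of which 2 were higher and 10 lower at 2 weeks. Among leading genes, Gpc3 read 1146, 451 and 984 CPM at 1 week and 1085, 666 and 1049 CPM at 2 weeks and Afp 2235, 402 and 3274 CPM and 1362, 389 and 4366 CPM. Afp was lowest in replicate 2 at both times. Akr1c18, a reductase, read 101, 102 and 102 CPM at 1 week and 39.9, 39.5 and 47.4 CPM at 2 weeks, without overlap, and did not pass.

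More genes passed between the media. Both this comparison and the main one use the same HM-Wnt libraries, and their values are given side by side. Between HM-Wnt and MM at 2 weeks 1185 genes passed (8.85%), 444 higher in HM-Wnt (3.31%) and 741 lower (5.53%). Same-numbered libraries of these 2 groups deviated together, and with the replicate number as a block 1710 genes passed, 705 of them higher. The count rested on few libraries, being 459 and 495 without HM-Wnt replicate 1 or 3 and 474 and 445 without MM replicate 1 or 2, and it fell to 7 when all 27 libraries shared 1 estimate of the spread. Of the 10 fetal liver genes tested 2 were higher in HM-Wnt than in MM, Gpc3 and Afp. Against the HM-Wnt values above, Gpc3 read at most 75.0 CPM in MM (log2 fold change of HM-Wnt over MM 4.57 ± 0.71, adjusted p = 0.00257), Afp 29.7, 25.3 and 144 CPM (4.94 ± 0.99, adjusted p = 0.00993), Stc1 2.04, 4.02 and 3.44 CPM (4.41 ± 0.37, adjusted p = 0.000246) and Igfbp3 19.6, 10.1 and 28.1 CPM (4.31 ± 0.75, adjusted p = 0.00469). In MM, all 3 libraries of each of these 4 genes still lay above the 3 fresh libraries. Cdh17 and Sprr1a were also higher in HM-Wnt than in MM (1.69 ± 0.28, adjusted p = 0.00475, and 2.83 ± 0.65, adjusted p = 0.0180).

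Metabolic genes were lower in HM-Wnt than in MM. Gluconeogenesis and liver glucose handling had 11 of 15 genes lower and none higher in HM-Wnt, and fatty acid oxidation and ketogenesis 12 of 20 lower and none higher, against the background of 5.53%. Fbp1 stood at 1420, 1523 and 1052 CPM in MM (-2.02 ± 0.27, adjusted p = 0.00116). Slc2a2 stood at 187, 119 and 58.9 CPM in MM (-6.56 ± 0.74, adjusted p = 0.000574), Ugt3a2, a glycosyltransferase, at 56.3, 56.0 and 20.5 CPM and Bhmt at 46.0, 58.2 and 13.3 CPM. Saa2 reached 3062, 1584 and 693 CPM in MM. Of 24 genes of the urea cycle and amino acid catabolism 6 were lower in HM-Wnt, where 5.53% of all genes were lower, with Cps1 not past the threshold (0.91, adjusted p = 0.43).

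Wnt targets and cell cycle genes went the other way. Of 12 Wnt targets 6 were higher in HM-Wnt than in MM and none lower, against a background of 3.31% higher, and of 26 cell cycle genes 6 were higher and none lower. Axin2 read 0.360, 0.167 and 0.149 CPM in MM (2.29 ± 0.53, adjusted p = 0.0195), and Top2a 0.528, 0.626 and 0.520 CPM (2.92 ± 0.49, adjusted p = 0.00387). Cyp2c37, of drug metabolism, was at 13.5, 22.8 and 5.31 CPM in HM-Wnt and at most 0.916 CPM in MM, both below the 55.6 to 387 CPM of the fresh libraries. By contrast, Ly6d, Slc7a11, Spp1, Cdkn1a, Pkm and Lcn2, all higher in HM-Wnt than in fresh hepatocytes, did not pass between the media, with log2 fold changes between -0.90 and 0.49. A miss of the threshold does not show that the media gave the same level. Kupffer and immune markers summed to 728 CPM in MM replicate 3, and 1195 genes passed between the media without that library.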

How the data were processed

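RNA of HepOrgs and hepatocytes was sequenced as polyA RNA (SMARTseq2). The authors aligned reads with STAR to mouse GRCm39 and deposited a table of raw counts per gene and a table of TPM values, stacked for all libraries in 1 column. TPM lengths spanned introns for most genes, so levels were not compared between genes. The table held 37 libraries, of which 10 matched no sample label and were not used.

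Counts of 15 libraries (5 conditions of 3) were fitted without covariates by edgeR 4.0.16 (R 4.3.3, quasi-likelihood test, TMM, low genes removed by filterByExpr, minimum count 10, minimum total 15), with Benjamini-Hochberg adjustment over 13396 genes and a threshold of 0.05. DESeq2 1.42.0 and limma 3.58.1 on log2(TPM + 1) were alternatives. Depth was 31477682 to 53113534 counts in the 6 libraries compared, and counting intervals and floors cover counting error only. The scripts were tested on simulated data. The text names the 15 highest and 15 lowest genes of the main comparison whose average log2 CPM reached 5 and whose groups did not overlap, up to 5 each of the other comparisons, up to 3 of each list in each direction with up to 2 not past the threshold, genes the study names, and the pairs of liver and general forms. Members and lists were chosen with earlier results of these data known. Same-numbered HepOrg libraries deviated together (correlations 0.168 to 0.217 between weeks and 0.185 to 0.475 between media). Differently numbered ones gave -0.241 to 0.027 and -0.372 to 0.193, so the ranges between media overlapped slightly. The numbers were read as a hint that the HepOrg groups are paired, which the labels do not state, and the main fit did not use them. They did not pair HepOrgs with fresh hepatocytes (-0.112 to 0.074). Promoters came from RefSeq (GRCm38.p6). Results for some genes are not reported here.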

Additional observations from a re-analysis of the deposited data

Results flagged for a closer look

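The difference from fresh hepatocytes was not the same in both media: 1185 genes differed between HM-Wnt and MM HepOrgs at 2 weeks, which is the direct test of that difference since the fresh libraries cancel out. Of these, 444 were higher and 741 lower in HM-Wnt.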

How the results depend on the processing

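Of 116 genes named, all kept direction and side of the threshold with RLE size factors and DESeq2, 115 with a replicate block, 101 with total counts, 99 with all 27 libraries (17 lost their call), and 97 and 96 of 115 on the log2(TPM + 1) and log2(TPM + 0.1) scales. The count of 6939 genes became 6937 with RLE factors, 7487 with DESeq2, 6288 with the 2 groups alone, 6043 to 6813 with 1 library left out and 3247 with all 27 libraries in the fit. With the replicate block, that is the pairing of same-numbered libraries, it was 7198, but these numbers did not pair HepOrgs with fresh hepatocytes. The block left the comparison of weeks at 0 genes. DESeq2 called 12 genes between weeks. Between media, DESeq2 called 2142 genes, the 2 groups alone gave 1848, all 27 libraries gave 7, and leaving out 1 library gave 445 to 1195. On each TPM scale 34 genes past the threshold turned direction and stayed past it. Some named genes not past the threshold also changed sign. With total counts, log2(TPM + 1) and log2(TPM + 0.1) in turn, the log2 fold changes were 0.056, 0.25 and 0.25 for Hpx, 0.45, 0.73 and 0.77 for Abcb4, 0.47, 0.31 and 0.49 for Fgfr2, 0.21, 0.48 and 0.49 for Got1 and 0.036, 0.21 and 0.29 for Cad. With 1 library left out, the ranges crossed 0 for Fgb (-0.0071 to 0.50), Abcb4 (-0.40 to 0.14), Fgfr2 (-0.54 to 0.28) and Met (-0.22 to 1.03). Without fresh replicate 3, list calls kept with the same direction were 8 of 12 for acute phase genes and 12 of 14 for ATF4 targets. They were 14 of 16 for the TGF-beta list, 12 of 14 for cholangiocyte markers and 13 of 15 for hepatocyte factors. In other lists all were kept, such as 20 of 20 for cytochrome P450 genes and 18 of 18 for periportal genes. The medians of 4 lists changed sign with total counts and of 8 with TPM. The cause was not tested. Depth limits ratios of genes with 0 to 3 counts in a group to the bounds and intervals given.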
